A study of Mus musculus with 2 samples.

Results

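The genes described here encode the proteins that cap and extend telomeres, the ends of chromosomes. They are the 7 mouse shelterin genes (Terf1, Terf2, Tinf2, Acd, Pot1a, Pot1b and Terf2ip), the telomerase genes Tert and Dkc1, and Ctc1 of the CST complex. These 10 genes were chosen by name, and 14 of the 55681 probes on the array belonged to them through the accession that the scanner files give each probe. All 14 probes were well above background in both channels on both arrays, so no gene was lost to a filter on dim signals, which kept 16071 of 20284 named genes. RNA of mouse embryonic stem cells (ESCs) labelled as HDAC6 overexpression, in Cy5, was hybridised together with RNA of wild-type (WT) ESCs, in Cy3, on each of 2 two-colour arrays. Both lines were of strain B6C3F1 and at passage 26, and both grew with LIF on feeders, mouse fibroblasts stopped from dividing by mitomycin C. The labels speak of biological replicates but say nothing of separate cultures, so p-values measure only the spread between these arrays, which may be technical. How HDAC6 was raised, and whether the line is 1 clone, is not given in the sources used here. HDAC6 is a mainly cytoplasmic deacetylase.

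Telomeres are tandem TTAGGG repeats bound by shelterin. Terf1 and Terf2 encode the proteins that bind the double-stranded repeats, the Pot1 proteins bind the single-stranded overhang, and the products of Tinf2 and Acd link these binders. Telomerase copies new repeats from its own RNA, and CST ends that extension and brings in the polymerase that fills the opposite strand. ESCs keep telomerase active and so hold their telomere length through long culture.

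The share of probes well above background was 68.6% to 68.7% for overexpression cells and 68.0% to 68.8% for WT cells. The log2 ratios of the 2 arrays correlated with r = 0.924 over the genes tested, a description, since genes are no replicates and both arrays share their dye orientation. Hdac6 itself had a brighter probe with signals of 18275 and 17344 in overexpression cells, against 16389 and 17806 in WT cells, a mean log2 ratio of 0.06 ± 0.14 (SD, n = 2; limma adjusted p = 0.67). It was called higher in 1 of 8 alternative settings, normexp and median centring (0.52, limma adjusted p = 0.00077), a scaling that lifts bright probes, so the array gives the overexpression label no firm check. Whether its probes detect an introduced copy is not given in the sources used here. Marker RNA of primitive endoderm and of fibroblasts differed between the channels. Of 17 primitive endoderm markers 16 were higher and 1 lower, with summed signals of 187000 and 193000 in the overexpression channel, against 24900 and 28400 in the WT channel. Of 14 fibroblast markers, which feeders express, 12 were higher and 0 lower, with summed signals of 207000 and 274000 in the overexpression channel, against 113000 and 99200 in the WT channel. Of 11 pluripotency markers 5 were higher and 3 lower, with near equal sums of 195000 and 212000 in the overexpression channel, against 194000 and 207000 in the WT channel. All of these markers passed the filter on dim signals. The part of these cell types in the results below was not tested, and in bulk RNA fewer cells of a type and less RNA per cell cannot be told apart.

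Across the 10 genes the differences were modest and ran both ways. Terf1 and Pot1a were higher in overexpression cells, Terf2ip, Tert and Ctc1 were lower, and the brightest probes of Terf2, Tinf2, Acd, Pot1b and Dkc1 did not pass the test. A gene was called at a limma adjusted p under 0.05, with the log2 ratio of overexpression over WT tested against 0 over all 38393 probes that passed the filter, and each gene was counted by its brightest probe. By that rule 47.1% of all 16071 genes were called, 19.4% higher and 27.7% lower, and of all 38393 probes 46.1% were called. The 2 higher and 3 lower of the 10 genes therefore lie near the shares over all genes. The 10 genes had a median of -0.16 on the log2 scale, beside -0.06 over all genes, and by array this was -0.19 and -0.15. None of the 10 was at least 1.5-fold changed on both arrays, a size that 20.5% of all genes reached. Of the 14 probes, 13 had the same sign on both arrays, as did 85.8% of all genes. Both arrays have the same dye orientation, so dye effects are left in every ratio.

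**Figure D1:**
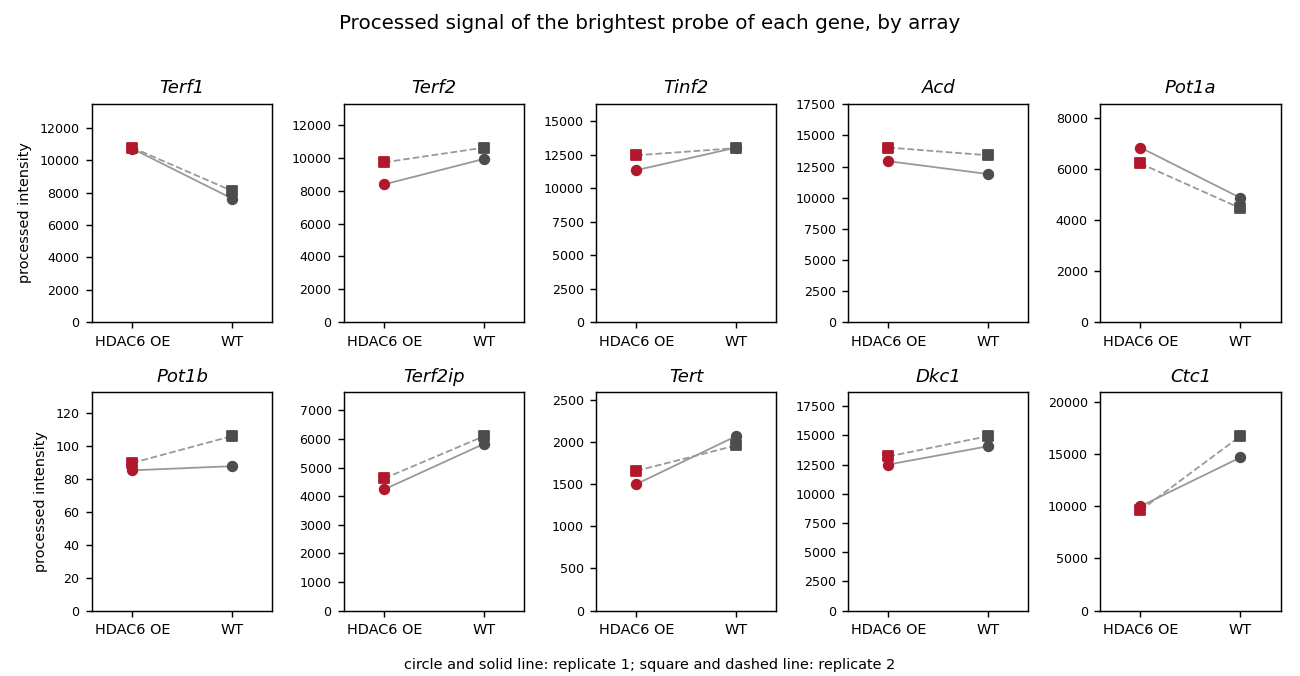
Processed intensity (vertical axes, each from 0 and to its own scale) of the brightest probe of each of the 10 genes in the HDAC6 overexpression channel (red, left) and the WT channel (grey, right), with circles and solid lines for replicate 1 and squares and dashed lines for replicate 2. Lines slope down to WT for Terf1 and Pot1a on both arrays and up to WT for Terf2ip, Tert and Ctc1 on both arrays.

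Terf1, whose product TRF1 coats the double-stranded repeats and helps replication forks through them, was higher in overexpression cells. Its only probe had signals of 10729 and 10794 in overexpression cells, against 7636 and 8110 in WT cells. Both overexpression signals lay above both WT signals. Such separation does not set the called genes apart. The brightest probes of Terf2, Tinf2 and Dkc1, which were not called, also had channels without overlap. The share of all genes without overlap was not counted. The ratio was 1.37-fold, a log2 ratio of 0.45 ± 0.06 (SD, n = 2; limma adjusted p = 0.015), with a 95% interval of 0.20 to 0.70.

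Terf2, whose product TRF2 shapes the protective loop at the chromosome end and holds off end joining, gave different answers by probe. The brightest of its 3 probes, of transcript NM_009353, had signals of 8384 and 9721 in overexpression cells, against 9935 and 10623 in WT cells, and a mean log2 ratio of -0.19 ± 0.08, which did not pass (adjusted p = 0.18; 95% interval -0.44 to 0.06). Another probe listed for the same transcript had signals of 4215 and 4178 in overexpression cells, against 2732 and 3105 in WT cells, and was 1.44-fold higher (0.53 ± 0.14, limma adjusted p = 0.011). On both arrays these probes of 1 transcript thus had ratios of opposite sign. The remaining probe, of transcript NM_001083118, had signals of 4684 and 5337 in overexpression cells, against 4465 and 5193 in WT cells, and a log2 ratio of 0.05 ± 0.02 that did not pass (adjusted p = 0.68). The mean over the 3 probes was 0.13, against -0.19 by the brightest, and neither was called, so no direction is given for Terf2 as a gene. Where on the transcripts the probes lie is not known here.

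Terf2ip encodes RAP1, which is brought to telomeres by TRF2, and was lower by both of its probes. The brighter had signals of 4235 and 4619 in overexpression cells, against 5833 and 6100.4 in WT cells. The other had 1088 and 1247 in overexpression cells, against 1643 and 1561 in WT cells. In neither probe did the channels overlap between arrays. The log2 ratios were -0.43 ± 0.04 (limma adjusted p = 0.017) and -0.46 ± 0.19 (limma adjusted p = 0.022), which are 1.35-fold and 1.38-fold lower.

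The bridging genes showed no called difference. Tinf2, whose product TIN2 ties the double-strand binders to the overhang binders, had signals of 11353 and 12465 in overexpression cells, against 13043 and 13004 in WT cells, by its brighter probe. That log2 ratio was -0.13 ± 0.10 (limma adjusted p = 0.33; 95% interval -0.38 to 0.12), and the other probe, which had opposite signs on the 2 arrays, had 0.03 ± 0.08 (limma adjusted p = 0.80). Acd, which encodes TPP1, the partner of the Pot1 proteins and the contact point for telomerase, had 12932 and 14029 in overexpression cells, against 11898 and 13405 in WT cells. The channels overlapped across arrays, and the log2 ratio was 0.09 ± 0.04 (limma adjusted p = 0.47; 95% interval -0.15 to 0.34). With normexp background correction and centring of each array on its median, Acd was called higher, at 0.37 (limma adjusted p = 0.0048).

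The mouse has a pair of Pot1 genes where humans have a single one. In the mouse, POT1a mainly restrains the DNA damage response at telomeres and POT1b mainly limits resection of the C-rich strand. Pot1a had signals of 6838 and 6214 in overexpression cells, against 4865 and 4459 in WT cells, without overlap. It was 1.40-fold higher, at 0.48 ± 0.01 (SD, n = 2; limma adjusted p = 0.011; 95% interval 0.24 to 0.73), and 86.3% of the genes of its chromosome had a lower ratio. Pot1b had a dim probe spotted 10 times on each array. In overexpression cells its copies lay between 79.2 and 95.1 in replicate 1 and between 82.1 and 96.9 in replicate 2, against 72.8 to 98.1 and 96.2 to 114.6 in WT cells. The lowest signal of any probe well above background was 41.5 to 42.9 in the overexpression channel and 39.8 to 43.7 in the WT channel, so Pot1b was measured close to the limit. Over the copies used, the log2 ratio ran from -0.25 to 0.15 with a median of -0.09 in replicate 1 (9 copies, 5 below 0) and from -0.39 to -0.04 with a median of -0.27 in replicate 2 (8 copies, 8 below 0). The mean over the arrays was -0.14 ± 0.14, which did not pass (limma adjusted p = 0.31; 95% interval -0.41 to 0.12). The same copy was marked as an outlier in the Cy5 channel on both arrays, with log2 ratios of 1.12 and 0.67, and was left out. With outlier spots kept the mean was -0.04 (limma adjusted p = 0.79). Whether the changes of Pot1a and Pot1b differ was not tested.

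**Figure D2:**
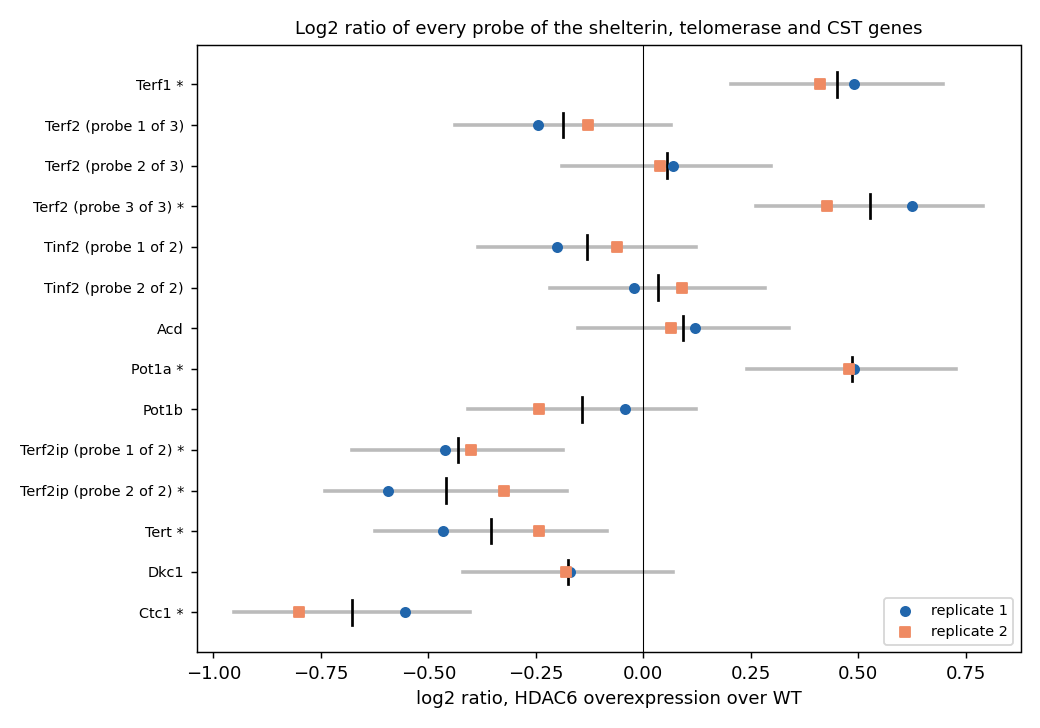
Log2 ratio of HDAC6 overexpression over WT (horizontal axis) of the 14 probes, with replicate 1 as blue circles, replicate 2 as orange squares, the mean as a black tick and its 95% interval from limma as a grey bar, and an asterisk for probes with an adjusted p under 0.05. The Terf2 probes straddle 0, between -0.19 and 0.53, while both Terf2ip probes lie near -0.45, at -0.43 and -0.46.

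Of telomerase, Tert encodes the reverse transcriptase and Dkc1 encodes dyskerin, the pseudouridine synthase that holds the telomerase RNA and also serves ribosomal RNA. Tert had signals of 1501 and 1659 in overexpression cells, against 2073 and 1962 in WT cells, so both overexpression signals were below both WT signals. It was 1.28-fold lower, at -0.35 ± 0.16 (limma adjusted p = 0.043; 95% interval -0.62 to -0.08), the weakest of the 5 calls, and with no filter on dim probes the limma adjusted p was 0.082. Dkc1 had 12498 and 13189 in overexpression cells, against 14069 and 14939 in WT cells, also without overlap. Its ratios were alike on both arrays, at -0.17 and -0.18, and the mean did not pass (-0.18 ± 0.01, limma adjusted p = 0.19; 95% interval -0.42 to 0.07).

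Ctc1 encodes the largest subunit of CST and was lower in overexpression cells. By mean log2 ratio it differed most of the 10 with the processed signals, but not with normexp and median centring, where Terf1, Pot1a and Tert differed more. Its signals were 9979.9 and 9589 in overexpression cells, against 14655 and 16702 in WT cells. It was 1.60-fold lower, at -0.68 ± 0.17 (limma adjusted p = 0.0056; 95% interval -0.95 to -0.40). On the log2 scale the first array gave -0.55 and the second -0.80, so the ratio passed 1.5-fold on the second array only.

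The scanner software gave a p-value per spot from its own error model. For the 13 probes spotted once, that deposited p was under 0.05 on both arrays for 4 probes, those of Terf1, Pot1a, Ctc1 and the higher Terf2 probe. It was under 0.05 on 1 array for 3 probes, both of Terf2ip and that of Tert, each in replicate 1, and on neither for the other 6. These values treat each array alone and hold no spread between samples. The share of all probes with such deposited p-values is not given here, so these counts have no comparison.

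Promoters of 4 of the 5 called genes are shown because these genes moved in both directions. RefSeq sequences of 300 bases around the annotated gene start, mostly before it (GRCm38.p6), were found for 9 of the 10 genes, all but Terf1, which was also higher. They are the sequences of Pot1a, which was higher, and of Terf2ip, Tert and Ctc1, which were lower. Capitals mark matches on either strand to GGGCGG (a GC box), CACGTG (an E-box), CCAAT or TTAGGG.
Pot1a promoter, chr6:25809169-25809468, minus strand: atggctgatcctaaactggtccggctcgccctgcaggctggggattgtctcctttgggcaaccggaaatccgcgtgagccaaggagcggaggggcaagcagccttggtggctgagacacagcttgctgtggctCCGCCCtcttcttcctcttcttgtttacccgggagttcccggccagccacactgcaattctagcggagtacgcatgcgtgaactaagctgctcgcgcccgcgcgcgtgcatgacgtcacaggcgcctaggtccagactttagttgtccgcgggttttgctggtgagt
Terf2ip promoter, chr8:112011109-112011408, plus strand: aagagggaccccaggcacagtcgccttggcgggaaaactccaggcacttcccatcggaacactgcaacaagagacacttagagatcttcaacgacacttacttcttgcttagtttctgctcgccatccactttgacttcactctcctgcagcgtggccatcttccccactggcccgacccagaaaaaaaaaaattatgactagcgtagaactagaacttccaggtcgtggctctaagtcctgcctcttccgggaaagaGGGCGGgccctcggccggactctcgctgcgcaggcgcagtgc
Tert promoter, chr13:73626661-73626960, plus strand: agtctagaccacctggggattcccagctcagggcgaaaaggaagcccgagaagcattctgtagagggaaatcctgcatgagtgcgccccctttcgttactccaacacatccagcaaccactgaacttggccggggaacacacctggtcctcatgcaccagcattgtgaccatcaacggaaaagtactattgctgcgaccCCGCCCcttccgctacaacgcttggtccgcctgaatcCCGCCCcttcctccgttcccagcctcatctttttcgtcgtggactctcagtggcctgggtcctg
Ctc1 promoter, chr11:69015661-69015960, plus strand: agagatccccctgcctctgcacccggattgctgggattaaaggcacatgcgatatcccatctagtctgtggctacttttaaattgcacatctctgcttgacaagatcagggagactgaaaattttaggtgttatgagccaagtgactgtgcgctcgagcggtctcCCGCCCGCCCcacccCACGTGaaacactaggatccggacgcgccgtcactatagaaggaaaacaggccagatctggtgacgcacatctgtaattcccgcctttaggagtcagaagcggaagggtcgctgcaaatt

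The GC box was present in 6 of the 9 genes, Pot1a, Terf2ip, Tert, Ctc1, Terf2 and Pot1b, and so in genes of both directions, while 35.7% of all 32851 promoters held it. Tert held 2 matches, and the 2 matches in Ctc1 overlap each other. The E-box was found in 1 of the 9 genes, Ctc1, and in 7.15% of all promoters. CCAAT was found in 4 of the 9 genes and 37.4% of all promoters, in Terf2, Acd, Pot1b and Dkc1, whose brightest probes were not called. TTAGGG, the letters of the telomere repeat, was found in 1 gene, Pot1b, and in 10.6% of all promoters. These counts are by gene, while the shares of all promoters are by promoter, and some genes have more than 1. By promoter, the GC box, E-box, CCAAT and TTAGGG were in 8, 1, 6 and 2 of the 11 promoters of the 9 genes. A match describes letters only, and no match says only that these letters are not in this window.

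Other telomere genes were taken from lists by role, with 63 genes measured of 66. Of these 63, 3 were called higher (4.76%) and 15 lower (23.8%), beside 19.4% higher and 27.7% lower over all genes, so the share called lower lies near that of all genes. The median log2 ratio was -0.08, beside -0.06 over all genes. The split depends on scaling. With normexp and loess it was 9 higher (14.3%) and 20 lower (31.7%), where 21.8% and 34.1% of all genes were called higher and lower. With normexp and median centring it was 19 higher (30.2%) and 16 lower (25.4%), where the shares over all genes were 30% and 29.7%. At least 1.5-fold lower on both arrays were 5 of the 63 genes, a size that 12.6% of all genes reached. As much higher were 0 of the 63 genes, and 1266 of all 16071 genes. The counts by role below, over few genes each, stand beside the same shares of all genes.

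In the polymerase and CST group, 2 of 6 further genes were higher and 1 lower. Stn1, which with Ctc1 and Ten1 makes up CST, had 8539.6 and 9535 in overexpression cells, against 6373 and 6916 in WT cells, and was higher at 0.44 ± 0.03 (limma adjusted p = 0.016). Ten1 had -0.23 ± 0.14 and did not pass (limma adjusted p = 0.12). It was called lower with normexp and loess and with normexp and median centring (limma adjusted p = 0.035 and 0.047). With the processed signals, then, 1 of the 3 CST genes was lower, 1 higher and 1 not called. The primase subunit genes also went apart, with Prim2 at 0.33 ± 0.02 (adjusted p = 0.038) and Prim1 at -0.33 ± 0.03 (adjusted p = 0.039) in the limma fit. With normexp and median centring Prim1 was at 0.03 (limma adjusted p = 0.79) and Prim2 at 0.75 (limma adjusted p = 1.9e-05), and both primase calls were lost with no filter on dim probes.

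Among 15 further telomerase genes 0 were higher and 2 lower. Nhp2, which encodes a partner of dyskerin in the telomerase ribonucleoprotein, had 11523 and 11350.5 in overexpression cells, against 17328 and 18120.2 in WT cells, and was 1.55-fold lower (-0.63 ± 0.06, limma adjusted p = 0.0051). With median centring its log2 ratio was -0.32 (limma adjusted p = 0.012). Parn, a ribonuclease that trims the telomerase RNA, had -0.39 ± 0.03 (limma adjusted p = 0.024), a call lost with no filter on dim probes (limma adjusted p = 0.052). Terc, the RNA template, had dim signals of 73.1 and 96.9 in overexpression cells, against 63.9 and 67.5 in WT cells, and did not pass at 0.36 ± 0.23 (limma adjusted p = 0.054). It was called higher when both channels had to be well above background (limma adjusted p = 0.037). With normexp and loess or median centring it had 0.20 and 0.19, not called (limma adjusted p = 0.13 and 0.14).

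Of 23 shelterin partners and maintenance genes 0 were higher and 6 lower. Rad50, of the MRN complex that senses DNA ends, had 10639.8 and 8258 in overexpression cells, against 20569 and 18293 in WT cells, and was lower at -1.05 ± 0.14 (limma adjusted p = 0.0014), with -1.12 by its other probe. Wrn, the Werner helicase gene, was lower at -0.96 ± 0.03 (limma adjusted p = 0.0014), and its other probe had -1.32. The tankyrase gene Tnks, whose product releases TRF1 from telomeres in human cells, had -0.61 ± 0.30 (-0.40 and -0.82 by array), and Atr, a kinase that answers to single-stranded DNA, -0.48 ± 0.17 (limma adjusted p = 0.014 and 0.017). Atr was not called with median centring (-0.22, limma adjusted p = 0.087). Of 11 telomere chromatin genes 0 were higher and 3 lower by their brightest probes, but dimmer probes of other genes in this list differed. A dimmer Atrx probe was called higher (0.61, limma adjusted p = 0.009). Dimmer probes of Cbx5, Suv39h2 and Kmt5b were called lower, at -0.46, -0.37 and -0.45 (limma adjusted p = 0.037, 0.029 and 0.016). The brightest probes of those genes were above 0 and not called. The histone H3.3 gene H3f3b was lower by all 3 probes (-0.82 ± 0.14 by the brightest, limma adjusted p = 0.0027), and so were Pml (-0.50 ± 0.24, limma adjusted p = 0.02) and the H4K20 methyltransferase gene Kmt5c (-0.34 ± 0.12, limma adjusted p = 0.042). Pml's other probe had -0.31 and did not pass (limma adjusted p = 0.053), and Kmt5c was not called with median centring (-0.21, limma adjusted p = 0.08) or with no filter on dim probes (limma adjusted p = 0.083).

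The 3 genes of meiotic telomere attachment were all called by their brightest probes. Majin was higher at 0.46 ± 0.11 (limma adjusted p = 0.015). Terb1 and Terb2 were lower, at -0.47 ± 0.07 and -1.32 ± 0.62 (limma adjusted p = 0.013 and 0.005). Terb1's other probe had -0.29 and did not pass (limma adjusted p = 0.058), while Majin's other probe was called higher at 0.45 (limma adjusted p = 0.033). Terb2 was dim, with 78.9 and 45.9 in overexpression cells, against 145 and 155 in WT cells, and was well above background in the overexpression channel on 1 of the 2 arrays. Its log2 ratio was -0.88 and -1.76 by array, -0.62 with normexp and loess and -0.63 with normexp and median centring, so its size is uncertain. Majin had 0.25 with median centring. Of 5 measured genes tied to telomere lengthening in ESCs, 0 were higher and 1 lower, Tcstv3 at -0.48 ± 0.19 over dim signals (limma adjusted p = 0.019), and at -0.27 with normexp and loess. The 3 Zscan4 genes measured, Zscan4a, Zscan4c and Zscan4f, were not called.

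The median ratio differed between chromosomes. Chromosome 11, which holds Ctc1, had a median log2 ratio of -0.51 over 1340 genes, of which 65.6% were called lower. All 6 telomere genes on it (Ctc1, Ten1, Nhp2, Wrap53, Rad50 and H3f3b) were below 0 on both arrays, and 4 of the 6 were called lower, with a median of -0.65. The 67 telomere genes on other chromosomes had a median of -0.05, with 5 higher (7.46%) and 14 lower (20.9%), where all 14719 genes of those chromosomes had a median of -0.03, with 20.3% higher and 24.3% lower. Ctc1 lay 0.16 below the median of its chromosome, where 36.4% of the genes had a lower ratio. Chromosome 8, with Terf2, Acd and Terf2ip, had a median of -0.25 over 851 genes, of which 44.1% were called lower. Terf2ip lay 0.18 below that median, where 36.5% of the genes had a lower ratio, while Acd lay 0.35 above it. Wrn, Tnks and Terb1, also on chromosome 8, lay 0.71, 0.36 and 0.22 below it. Chromosome 1, with Terf1 and Prim2, had a median of 0.25 over 909 genes, of which 40.5% were called higher. Terf1 lay 0.20 above that median, where 68.9% of the genes had a lower ratio, and Prim2 lay 0.08 above it. Pot1a and Tert lie on chromosomes whose medians were -0.01 and -0.08, and lay 0.50 above and 0.28 below them. The part of the chromosome in the ratios of single genes was not tested.

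**Figure D3:**
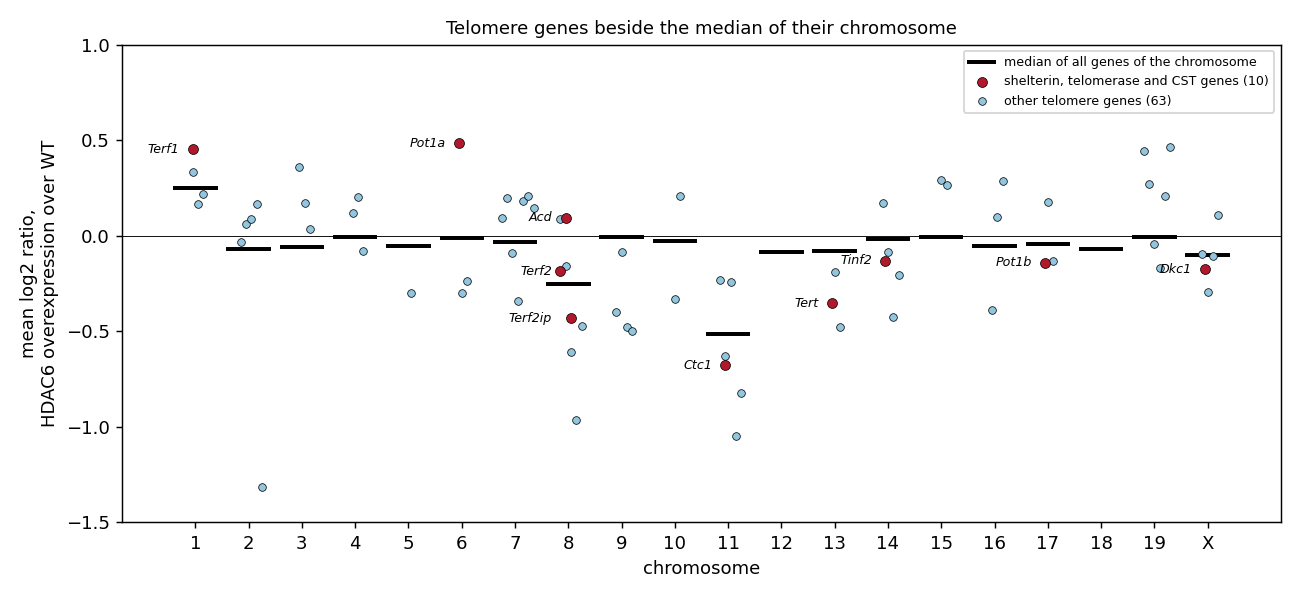
Mean log2 ratio of HDAC6 overexpression over WT (vertical axis, n = 2 arrays) of the 10 shelterin, telomerase and CST genes (red, named) and 63 other telomere genes (blue) by chromosome, with a black bar at the median of all genes tested on that chromosome. Chromosome 11 has the lowest bar, at -0.51, with Ctc1 and the other 5 telomere genes there below 0, and the bar of chromosome 1 is the highest, at 0.25.

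Scaling moved the brightest genes most. With normexp and median centring in place of the dye-normalized signals, the brightest of 10 equal groups of genes had a median log2 ratio of 0.53, against -0.07 with the processed signals and -0.02 with normexp and loess. Terf1, Pot1a, Terf2ip, Tert and Ctc1 kept their direction and their call under all 3 scalings. Ctc1 had -0.68, -0.72 and -0.44 with processed signals, loess and median centring, and the last is 0.63 below the median of its brightness group. Tinf2 and Dkc1, neither of them called, turned from -0.13 and -0.18 to 0.11 and 0.14 with median centring.

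**Figure D4:**
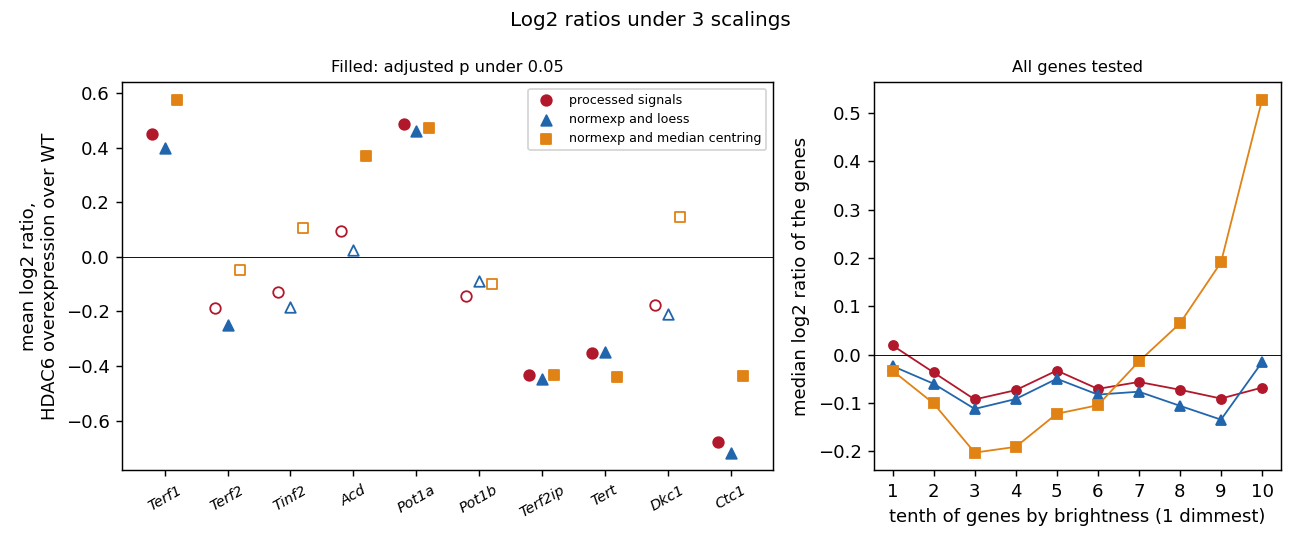
Left, mean log2 ratio of HDAC6 overexpression over WT for the brightest probe of each gene with the processed signals (red circles), normexp and loess (blue triangles) and normexp and median centring (orange squares), filled where the limma adjusted p is under 0.05. Right, the median log2 ratio of all genes tested in each of 10 groups of equal size by brightness under the same scalings, which reaches 0.53 in the brightest group with median centring.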

How the data were processed

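Per the labels' protocols, Trizol was used for the RNA, which went through linear amplification and dye labelling. Agilent Feature Extraction 11.5.1.1 made the scanner tables, on a grid built on mm9, per the file headers. The deposited processed intensity values are background-subtracted and dye-normalized by the authors' run of that software, and the raw median intensity values of spots and local backgrounds, used for the normexp alternatives, carry no normalization. The deposited log10 ratio equals that of the processed signals, Cy5 over Cy3, and a deposited p-value per spot stands beside it. The deposited series table holds log2 ratios with the opposite sign (correlation -1 and slope -1 against the scanner ratios on both arrays; column medians -0.0073 and 0.062), so its scale and direction are settled. With the sign turned, its median over all genes was -0.061, the same as with the processed ratios, against -0.078 when those were centred. No further centring of the series table is therefore seen.

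Control spots (3671) and outlier spots (269 and 313) were left out, 0 spots were saturated, and copies of a probe were averaged on the log2 scale. Of 55681 probes, 26762 had 1 symbol, 0 several and 28919 none, through unversioned accessions in a RefSeq table of GRCm38.p6 (1 list gene through a synonym). A probe was tested when both arrays had it well above background in the same channel. The log2 ratio was tested against 0 with limma 3.58.1 in R 4.3.3 (intercept only, two-sided, Benjamini-Hochberg adjustment over 38393 probes, 1 residual and 4.75 prior degrees of freedom). Intervals come from the same fit. The code was also run on simulated ratios centred on 0 with 200 changed probes. In these data 46.1% of probes were called and dye effects remain, so that run checks the code and not the calls. Precision is limited by having 2 arrays, and the typical SE of a mean log2 ratio was 0.10. Values after ± are SDs of the 2 arrays.

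The members, lists and alternatives were chosen with earlier results of these data known. Named beyond the members are Hdac6 and up to 4 called genes per list with the largest ratio. Singled out after their values were seen were Ten1, Terc, Wrap53, the Zscan4 genes, Atrx, Cbx5, Suv39h2 and Kmt5b. The motifs were also chosen after the data were seen. Alternatives were other background correction, scaling, filters, probe summaries, a 1.5-fold test, the series table and each array alone.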

Additional observations from a re-analysis of the deposited data

How the results depend on the processing

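The calls of Terf1, Pot1a, Terf2ip and Ctc1 held under the 8 alternatives that test against 0, with log2 ratios of 0.40 to 0.57, 0.46 to 0.48, -0.45 to -0.43 and -0.72 to -0.44. Tert held in 7 of 8 (adjusted p 0.0022 to 0.082), and was lost with no filter on dim probes. For the single-probe genes Terf1, Pot1a, Tert and Ctc1, only normexp with loess or median centring, and centred processed ratios, changed the ratio. The remaining alternatives left that ratio unchanged and moved at most its adjusted p. Under limma's treat, which asks for more than a 1.5-fold change, 0 of the 10 genes were called higher and 0 lower. Of the 63 other telomere genes 0 were higher and 1 lower, while 3.63% and 5.12% of all genes were called higher and lower. The calls of the 10 genes thus show a difference from 0 and not one of that size. The other telomere genes called higher numbered 9 with normexp and loess, 19 with normexp and median centring, and 5 when both channels had to be well above background, against 3. Of all genes 21.8%, 30% and 20.4% were called higher in these settings, against 19.4%. At least 1.5-fold on both arrays was 1 of the 10 genes with normexp and loess, and between 0 and 1 with a single array, where the 1, without replicate 1, is Ctc1. The median of the 10 genes was -0.20 with normexp and loess, 0.029 with normexp and median centring, and -0.095 with the mean of a gene's probes, and between -0.19 and -0.15 with a single array. Signs turned, without a call, for Tinf2 (0.11) and Dkc1 (0.14) with median centring and for Terf2 (0.13) with the mean of its probes, and from a call for Prim1 (0.033) with median centring. Terf2 was called lower with loess (-0.25, adjusted p = 0.043). Each array alone gives a value with no test. No replicate block was fitted because the 2 channels of an array are already paired in its ratio. The slide could not be tested as a batch because both arrays lie on 1 slide, and the cause of these shifts was not tested.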
